A study of Mus musculus with 32 samples.

Results

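The 37 genes described here are small nucleolar RNA (snoRNA) host genes, factors of nonsense-mediated mRNA decay (NMD) and splicing regulators of the mouse. They were chosen by symbol, as transcripts that are sensitive to decay coupled to translation or that encode its machinery. Of the 37 symbols, 36 matched 1 gene each of the 55335 in the deposited tables, by Ensembl identifier through the GENCODE M21 annotation of mm10; Snhg4 matched none. They comprise 10 snoRNA host genes, 9 NMD factors, 9 serine/arginine-rich (SR) splicing proteins, 4 CDC-like (CLK) kinases and 4 other splicing regulators.

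RNA was sequenced in mouse oocytes, cleavage embryos and stem cells (ESC) of the embryonic line AB2.2, in 16 groups of 2 libraries. Growing oocytes of females at postnatal day 14 (P14) carried an H3.3K4M transgene, which encodes histone H3.3 with methionine at lysine 4, or an H3.3WT transgene as reference; the promoter of the transgene is not given in the sources used here. Metaphase II (MII) oocytes were wild type and came from females of 12 months or of 8 weeks. Wild-type 2-cell (2C) embryos came from 12-month females without treatment, or from females of 6 to 8 weeks with aphidicolin (APH, which blocks replicative DNA polymerases), cycloheximide (CHX, which blocks translation elongation), MG132 (which inhibits the proteasome) or DMSO as vehicle. Wild-type 4-cell (4C) embryos of 6 to 8-week females received the same 3 drugs or DMSO, and AB2.2 cells, a single wild-type line, received cycloheximide, MG132 or DMSO. For doses and durations the sources used here give no value, and the labels do not say whether the libraries of a group came from separate cultures or animals; the p values therefore cover no more than the spread among these samples, and this may be technical.

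NMD removes transcripts on which a ribosome stops early, usually upstream of an exon junction: Upf1, a helicase, is phosphorylated by the kinase Smg1 and then recruits the nuclease Smg6 or adaptors such as Smg5. Because it needs translation, blocking translation with cycloheximide is known to raise such transcripts in cultured cells. Host genes of the Gas5 type carry snoRNAs in their introns, and their spliced RNAs have short reading frames and are known NMD targets. Most SR genes hold a "poison" exon with an early stop codon that the SR proteins themselves can include, and the CLK kinases phosphorylate SR proteins and thereby set such choices.

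Levels are given in CPM, counts scaled by library size, with 1 scaling across all 32 libraries, in the order replicate 1 and replicate 2. Fold changes are on the log2 scale with their standard error, and p values, from the quasi-likelihood test of edgeR, were adjusted by Benjamini-Hochberg over all genes tested. Calls, in either direction, were made at an adjusted p under 0.05, and each group has n = 2. No spike-in is stated, so every change is relative to the rest of the library, and in these bulk samples fewer cells of a type and less RNA per cell cannot be told apart. Libraries held 14313718 to 34713159 counts. The labelled cell types were checked on marker lists. The 9 oocyte markers summed to 52490 to 63150 CPM in growing oocytes, 16500 to 17830 CPM in MII oocytes and at most 15.31 CPM in stem cells. The sum of the 9 markers of 4-cell embryos and stem cells did not mark its stage. It was 10640 to 11090 CPM in growing oocytes, 5061 and 5640 CPM in DMSO 4-cell embryos and 2954 to 3411 CPM in stem cells. In growing oocytes Dppa5a made up nearly all of it, with means of 10780 (H3.3K4M) and 10630 CPM (H3.3WT).

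The sequences below show what is named here as a host gene and as a poison exon. SnoRNAs lie in introns of the hosts, and their box C (TGATGA) and box D (CTGA), the motifs that box C/D snoRNAs share, are in capitals. They are mm10 sequences at GENCODE M21 positions: Snord47 of Gas5 at chr1:161038082-161038158 on the plus strand, Snord12 of Zfas1 at chr2:167065276-167065365 on the plus strand and Snord99 of Snhg12 at chr4:132310691-132310764 on the plus strand.
Snord47: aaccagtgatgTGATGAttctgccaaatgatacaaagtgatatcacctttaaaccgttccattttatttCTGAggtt
Snord12: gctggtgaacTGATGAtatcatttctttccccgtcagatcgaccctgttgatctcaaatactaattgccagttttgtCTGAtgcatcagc
Snord99: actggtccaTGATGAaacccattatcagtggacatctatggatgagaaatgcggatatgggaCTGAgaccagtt

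The start of a host gene was read from RefSeq on GRCm38.p6, 40 bases before to 25 bases after the annotated start. Shown in capitals are the longest run of C or T from 5 bases before to 25 bases after the start, and the motif TATANA where it lies 45 to 15 bases before the start. The run can lie anywhere in that span and need not begin at the start itself. Gas5 has 2 annotated starts, and the window shown is that of the downstream one, at chr1:161035126-161035190 on the plus strand; the window of the other, at chr1:161034561-161034625, has a longest run of 3 and no TATANA. Snhg1 is at chr19:8723447-8723511 on the plus strand, Snhg5 at chr9:88522873-88522937 on the minus strand, Snhg12 at chr4:132308638-132308702 on the plus strand and Zfas1 at chr2:167062894-167062958 on the plus strand.
Gas5: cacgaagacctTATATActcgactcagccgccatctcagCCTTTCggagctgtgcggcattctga
Snhg1: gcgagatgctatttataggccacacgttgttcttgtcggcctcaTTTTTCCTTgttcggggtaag
Snhg5: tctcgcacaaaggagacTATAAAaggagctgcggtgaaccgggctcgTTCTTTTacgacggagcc
Snhg12: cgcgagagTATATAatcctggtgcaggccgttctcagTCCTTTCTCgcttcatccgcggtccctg
Zfas1: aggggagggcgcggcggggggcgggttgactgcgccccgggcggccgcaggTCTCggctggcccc
A run of 7 or more C or T stood in 4 of the 8 host genes with a window, 50%, and in 18.7% of the 27025 genes with one. TATANA on the gene's strand stood in 4 of the 8 hosts, 50%, and in 4.06% of all genes. Zfas1 held neither in this window.

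Poison exons are shown from their first base to the early stop, which is in capitals, at the positions of transcripts that GENCODE M21 marks as NMD targets. The part shown is chr17:29039454-29039487 on the plus strand in Srsf3, chr17:80205054-80205081 on the minus strand in Srsf7 and chr16:22259181-22259261 on the minus strand in Tra2b. The stop is reached after 34 bases of a 456-base exon in Srsf3, 28 bases of a 460-base exon in Srsf7 and 81 bases of a 276-base exon in Tra2b.
Srsf3: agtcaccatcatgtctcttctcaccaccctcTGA
Srsf7: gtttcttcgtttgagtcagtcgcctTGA
Tra2b: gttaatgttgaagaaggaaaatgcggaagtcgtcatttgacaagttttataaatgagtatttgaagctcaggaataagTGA
GENCODE marks at least 1 transcript as an NMD target in 19 of the 26 protein-coding genes among the 36, 73.1%, against 4573 of 21899 protein-coding genes, 20.9%. These were 8 of 9 SR genes, all 4 CLK genes, all 4 other regulators and 3 of 9 NMD factors. Counts per gene do not separate such transcripts from coding ones, so no value below tells which of them changed.

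**Figure D1:**
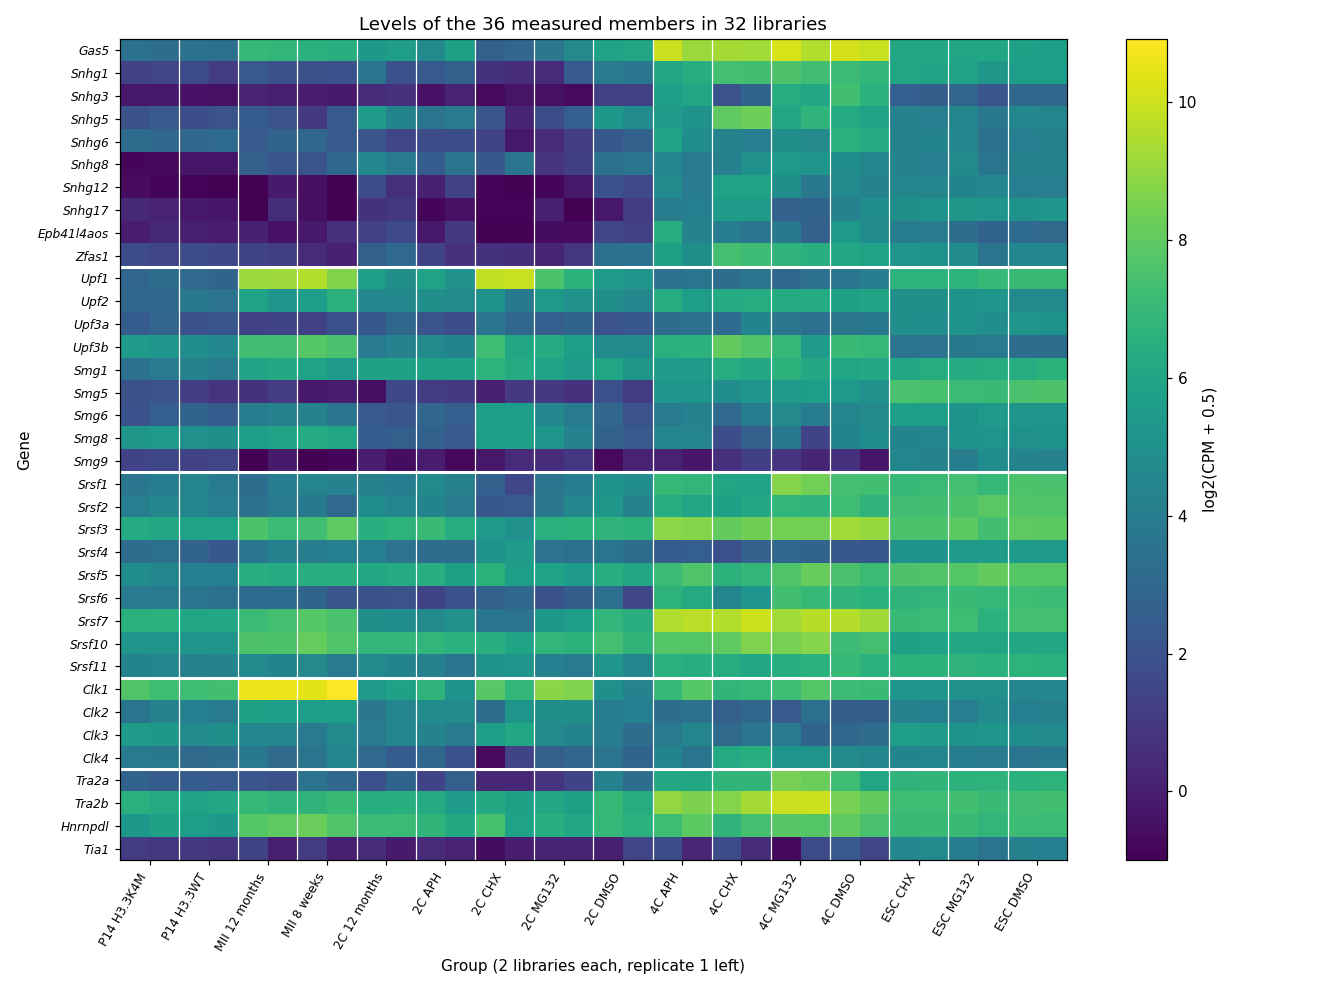
Level of each of the 36 genes (rows, by role) in each of the 32 libraries (columns, replicate 1 left) as log2(CPM + 0.5), by colour. In the top block Gas5 lies at 6.10 and 7.19 CPM in cycloheximide 2-cell embryos, against 58.5 and 63.6 CPM in DMSO 2-cell embryos; below, Clk1 lies at 1371 and 1942 CPM in MII oocytes of 8-week females.

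The question of the drug comparisons at 2 cells was which transcripts differ when translation, protein degradation or replication is blocked in embryos that are activating their genome. With cycloheximide 19 of the 36 genes were called, 7 higher and 12 lower, where 24.0% of 22391 genes were called, 11.0% higher and 13.0% lower. Their median change was -0.78, against -0.26 for all genes. The directions divided by role: 6 of 10 host genes were lower and none higher, and 4 of 9 NMD factors were higher and none lower.

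Gas5, a growth-arrest RNA with 10 small RNA genes inside it, had 6.10 and 7.19 CPM in cycloheximide 2-cell embryos, against 58.5 and 63.6 CPM in DMSO embryos. The groups did not overlap, and the change was -3.18 ± 0.45 (edgeR adjusted p = 0.000585). Zfas1, the host of Snord12, had 1.2 and 0.970 CPM with cycloheximide and 9.68 and 10.9 CPM with DMSO, a change of -3.25 ± 0.62 (edgeR adjusted p = 0.00314). Snhg1 had 1.2 and 0.929 CPM with cycloheximide, against 14.8 and 12.5 CPM with DMSO, a change of -3.69 ± 0.83 (edgeR adjusted p = 0.00791). In all 3 hosts both treated libraries lay below both vehicle libraries, as in 33.9% of all genes tested.

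Snhg5, the host of Snord50a, had 4.06 and 0.687 CPM with cycloheximide, against 41.1 and 26.8 CPM with DMSO, and fell by 3.81 (edgeR adjusted p = 0.00350). Its treated libraries differed from each other but stayed below the vehicle. Snhg12, the host of Snord99, had 2 counts in both cycloheximide libraries together, against 194 in the DMSO libraries, which is 76.7-fold lower with a 95% counting interval of 21 to 638 (edgeR adjusted p = 0.0101); without cycloheximide replicate 1 the remaining library held 0 counts. Epb41l4aos, a host antisense to Epb41l4a, had 0 counts with cycloheximide and 134 with DMSO, at least 35.3-fold lower from a floor of 3 counts over the group (edgeR adjusted p = 0.00319). Such intervals and floors leave out all but counting error, because without molecular identifiers reads do not stand for separate molecules.

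The other 4 hosts missed the threshold. Snhg3 changed by -3.22 ± 1.12 (edgeR adjusted p = 0.0572), Snhg6 by -2.01 ± 0.83 (edgeR adjusted p = 0.101) and Snhg8 by -0.47 ± 0.55 (edgeR adjusted p = 0.561). Snhg17 had 2 counts with cycloheximide and 62 with DMSO, a ratio of 24.5 with a counting interval of 6.51 to 207 (edgeR adjusted p = 0.101). In 9 of the 10 hosts both treated libraries were below both vehicle libraries, as in 33.9% of all genes tested; the exception was Snhg8.

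**Figure D2:**
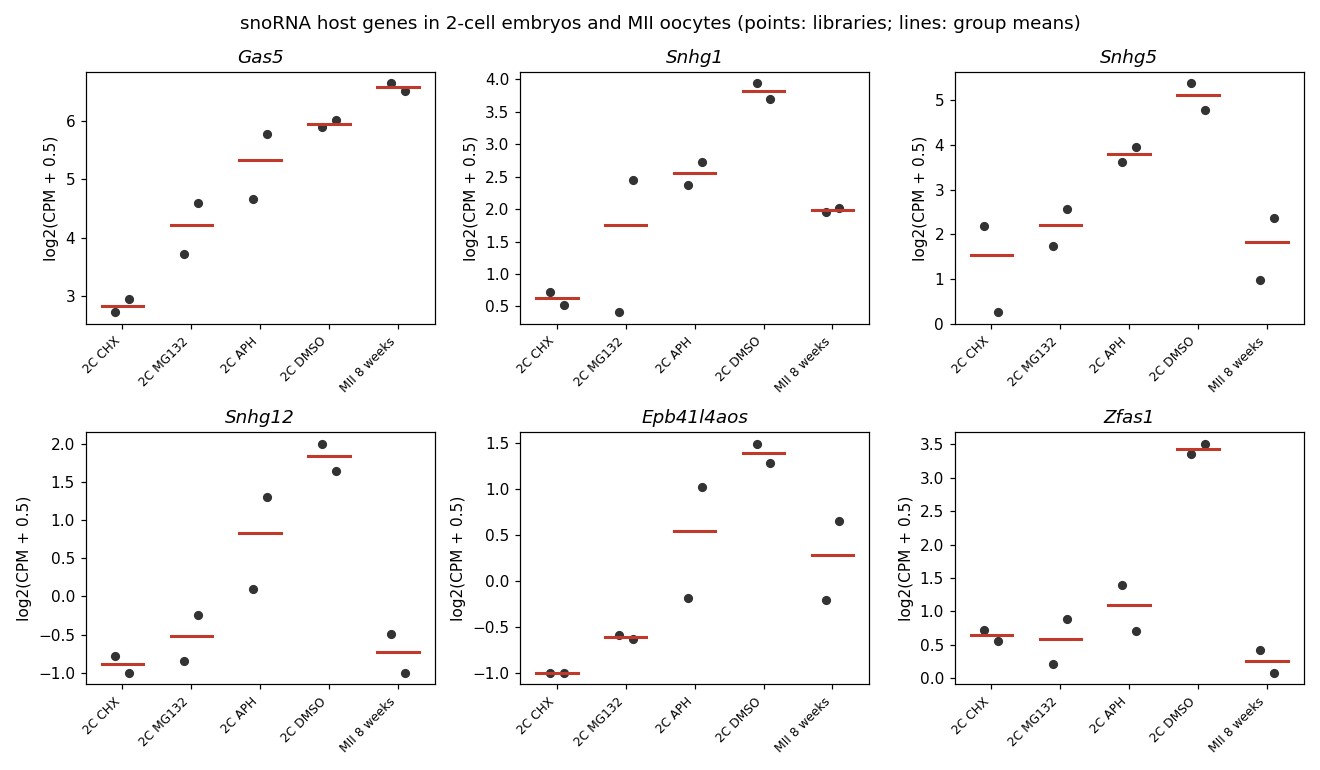
Levels of the hosts Gas5, Snhg1, Snhg5, Snhg12, Epb41l4aos and Zfas1 as log2(CPM + 0.5) in each library (points) with the group mean (line), for 2-cell embryos with cycloheximide, MG132, aphidicolin and DMSO and for MII oocytes of 8-week females. Gas5, for example, lies at 6.10 and 7.19 CPM with cycloheximide, against 58.5 and 63.6 CPM with DMSO.

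Among the NMD factors Upf1, the helicase at the core of the pathway, changed most. It had 881 and 969 CPM with cycloheximide, against 45.8 and 37.2 CPM with DMSO, a change of 4.49 ± 0.46 (edgeR adjusted p = 0.000119). MII oocytes of 8-week females, the stage before fertilization, had 740 and 406 CPM, so the treated embryos lay near the oocyte and the vehicle embryos far below it. Cers1 and Gdf1, on the opposite strand and sharing exonic bases with Upf1, moved with it: Cers1 had 52.2 and 36.5 CPM with cycloheximide and 2.62 and 1.56 CPM with DMSO. Whether strand was used in counting is not given in the sources used here, but the levels of both neighbours are well below that of Upf1.

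Smg8, a regulator of the Smg1 kinase, had 53.2 and 52.8 CPM with cycloheximide, against 5.97 and 4.51 CPM with DMSO, and changed by 3.35 ± 0.43 (edgeR adjusted p = 0.000348). Smg6, the nuclease that cuts NMD targets, had 50.7 and 49.9 CPM with cycloheximide, against 7.15 and 3.58 CPM with DMSO, and changed by 3.24 ± 0.44 (edgeR adjusted p = 0.000492). Upf3b, which links Upf2 to the exon junction complex, had 149 and 67.4 CPM with cycloheximide, against 26.5 and 26.0 CPM with DMSO, and changed by 2.06 ± 0.41 (edgeR adjusted p = 0.00428). Both treated libraries of these 3 genes lay above both vehicle libraries, and the share of all genes that did so was not counted. In MII oocytes of 8-week females Smg8 had 79.5 and 65.8 CPM and Upf3b 218 and 183 CPM, above their cycloheximide levels, while Smg6 had 19.6 and 12.3 CPM, below its cycloheximide level.

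Upf2, the bridge between Upf1 and Upf3, changed by -0.09 ± 0.42 (edgeR adjusted p = 0.912), Smg5 by -1.28 ± 1.06 (edgeR adjusted p = 0.401) and Smg9 by 0.75 ± 1.32 (edgeR adjusted p = 0.713). Upf3a, a weaker or opposing relative of Upf3b, changed by 1.37 ± 0.49 (edgeR adjusted p = 0.0658) and the kinase Smg1 by 0.83 ± 0.33 (edgeR adjusted p = 0.0903). Smg1 had 105 and 80.5 CPM with cycloheximide, against 66.6 and 39.5 CPM with DMSO, so its groups did not overlap although the test was not passed. With the replicate number as a block it passed (edgeR adjusted p = 0.0476).

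**Figure D3:**
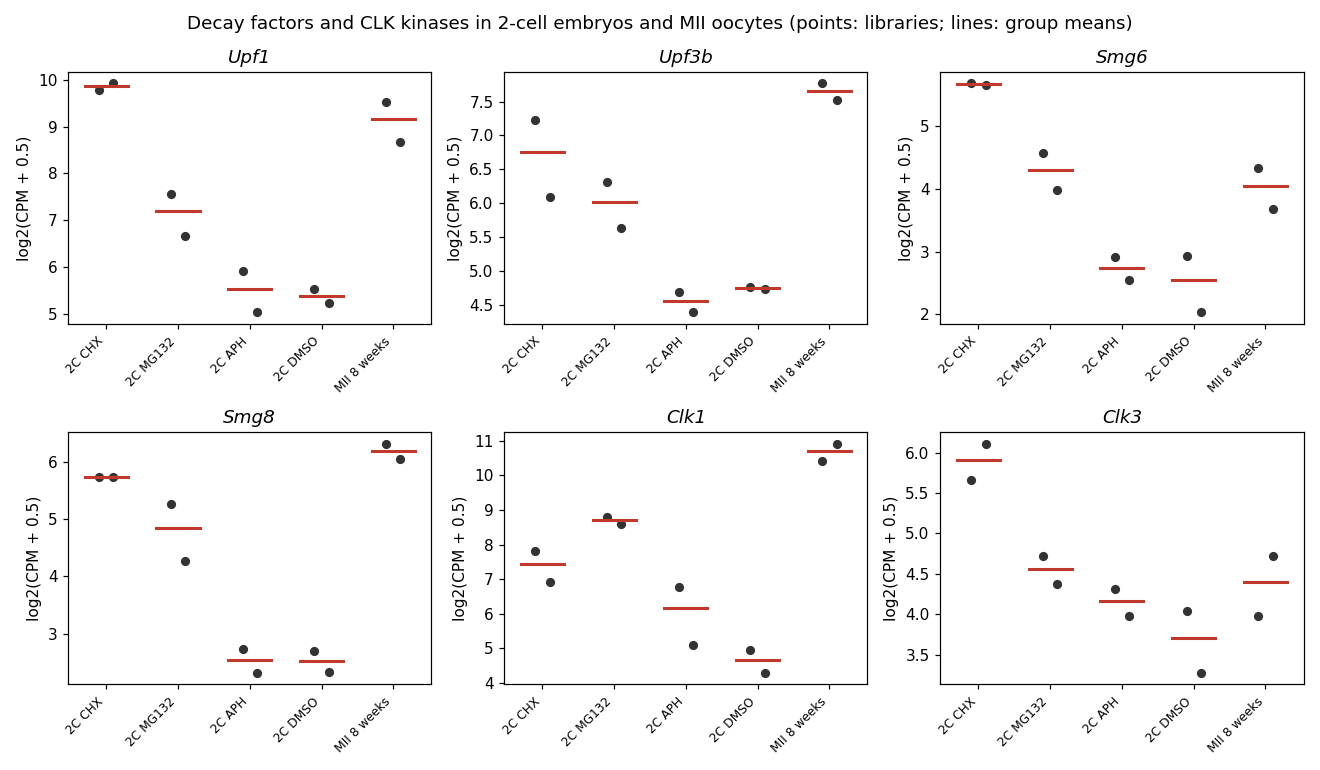
Upf1, Upf3b, Smg6, Smg8, Clk1 and Clk3 as log2(CPM + 0.5) in each library (points) with group means (lines), in the 2-cell drug and vehicle groups and in MII oocytes of 8-week females. All 6 are higher with cycloheximide than with DMSO, and the scale of each panel is its own.

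The SR genes split. Srsf7, which has a poison exon as printed above, had 12.4 and 11.5 CPM with cycloheximide, against 114 and 88 CPM with DMSO, a change of -3.07 ± 0.32 (edgeR adjusted p = 0.000131). Srsf1, the founding member of the family, had 6.18 and 2.38 CPM with cycloheximide, against 34.2 and 27.5 CPM with DMSO, a change of -2.82 ± 0.48 (edgeR adjusted p = 0.00161). Srsf2, a general splicing activator, had 4.14 and 4.53 CPM with cycloheximide, against 39.7 and 19.8 CPM with DMSO, a change of -2.76 ± 0.45 (edgeR adjusted p = 0.00129). Both treated libraries of Srsf7, Srsf1 and Srsf2 lay below both vehicle libraries, as in 33.9% of all genes tested. Srsf2 shares 460 exonic bases with Mettl23 and 288 with Mfsd11 on the opposite strand, and reads in these cannot be told apart without strand. Mfsd11 had 0.917 and 0.970 CPM with cycloheximide and 8.10 and 3.7 CPM with DMSO. Mettl23 had 7.61 and 9.94 CPM with cycloheximide and 18.7 and 8.99 CPM with DMSO.

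Srsf3, the smallest SR protein, fell less, to 42.6 and 30.8 CPM with cycloheximide, against 107 and 102 CPM with DMSO (-1.49 ± 0.31, edgeR adjusted p = 0.00499). Srsf4 was the only SR gene called higher, with 34.7 and 47.6 CPM with cycloheximide and 12.0 and 8.69 CPM with DMSO (2.01 ± 0.37, edgeR adjusted p = 0.00283). Gm12992, on the opposite strand of Srsf4 and sharing exonic bases, had 32.9 and 46.0 CPM with cycloheximide and 13.7 and 12.2 CPM with DMSO, close to the levels of Srsf4 in each library, so reads of the 2 genes cannot be told apart without strand. Srsf5, Srsf6 and Srsf11 overlapped between the groups, with changes of 0.01, 0.16 and 0.27. Srsf10, a splicing repressor when dephosphorylated, changed by -0.89 ± 0.31 (edgeR adjusted p = 0.0573) and passed with the replicate block (edgeR adjusted p = 0.0243).

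Of the CLK kinases, which phosphorylate SR proteins, Clk1 had 224 and 120 CPM with cycloheximide, against 30.4 and 19.1 CPM with DMSO, a change of 2.82 ± 0.52 (edgeR adjusted p = 0.00269). Clk3 had 50.3 and 68.7 CPM with cycloheximide, against 16 and 9.19 CPM with DMSO, a change of 2.26 ± 0.40 (edgeR adjusted p = 0.00208). It shares 1284 exonic bases with Edc3 on the opposite strand, and reads in these cannot be told apart without strand. Edc3 had 7.85 and 17.2 CPM with cycloheximide and 4.29 and 1.76 CPM with DMSO, below Clk3 in each of these libraries. Clk4 was lower, with 0.120 and 2.14 CPM with cycloheximide, against 11.4 and 6.73 CPM with DMSO (-3.0 ± 0.92, edgeR adjusted p = 0.0341). Clk4 is the call that depends on a library: its adjusted p was 0.0687 without cycloheximide replicate 1 and 0.109 without DMSO replicate 1, and its change was -6.16 without cycloheximide replicate 2. Clk2 overlapped between the groups.

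Tra2a, a splicing activator with an SR domain, was also lower, at 0.717 and 0.727 CPM with cycloheximide, against 18.6 and 9.35 CPM with DMSO (-4.25 ± 0.72, edgeR adjusted p = 0.00170). Its relative Tra2b changed by -0.68 ± 0.35 (edgeR adjusted p = 0.177), Tia1, an RNA-binding protein of stress granules, by -2.21 ± 1.17 (edgeR adjusted p = 0.186), and Hnrnpdl, an hnRNP protein, overlapped between the groups. Leaving out any 1 of the 4 libraries gave 18 to 20 called genes, and 18 of the 19 were called each time, Clk4 being the exception. The replicate block gave 21.

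Maternal and zygotic markers differed between these groups as well. The 9 oocyte markers summed to 7419 and 12650 CPM in cycloheximide 2-cell embryos, against 3807 and 4232 CPM in DMSO embryos, and the 7 measured 2-cell markers to 12.7 and 33.8 CPM, against 850 and 1086 CPM. The oocyte sum was carried by Oosp1 and Gdf9. Mean CPM with cycloheximide against DMSO was 5636 against 1587 for Oosp1 and 2788 against 179.5 for Gdf9. It was also higher for Zp1 (35.7 against 10.5), Zp3 (52.3 against 13.7), Nobox (105.4 against 46.1) and Ddx4 (50.7 against 24.35). For Bmp15 it was 1325 against 2113, for Zp2 41.5 against 45.5 and for Figla 0.643 against 0.676. Of the 2-cell markers 1 and 2 were at 0 with cycloheximide and none with DMSO. Their part in the changes above was not tested.

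Lists of other genes of the same pathways were counted in the same comparison. Of 20 tested other snoRNA hosts 8 were higher and 6 lower. The higher ones included the coding hosts of snoRNA protein components Dkc1 (3.19 ± 0.31), Nop56 (2.91 ± 0.44) and Nop58 (2.61 ± 0.45). Lower were the coding Cct6a (-3.10 ± 0.79) and Eif4a2 (-0.98 ± 0.27) and the non-coding Dancr, Snhg11, Snhg15 and Snhg20. Of 16 other NMD and exon junction factors 2 were higher, Dcp1a of the decapping complex (3.60 ± 0.33) and Nbas (2.14 ± 0.54), and 3 lower, Pnrc2, Magohb and Rbm8a. Of 9 mRNAs known as NMD targets, Ern1, a sensor of unfolded proteins, (4.28 ± 0.33) and Cars (2.29 ± 0.49) were higher, and the stress-response genes Atf3, Ddit3, Gadd45a and Gadd45b were lower. The symbol Ddit3 matched 2 deposited gene entries, and its results here and below are those of the first only. Of 40 other splicing factors 7 were higher and 9 lower.

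MG132 at 2 cells called 10 of the 36 genes, 4 higher and 6 lower, where 9.77% of all genes were called, 5.10% higher and 4.68% lower. This comparison and that of cycloheximide share their DMSO libraries, so the values are given side by side and not as a second observation. Clk1 had 441 and 389 CPM with MG132, against 30.4 and 19.1 CPM with DMSO (4.06 ± 0.55, edgeR adjusted p = 0.00128), above its level with cycloheximide. Smg8 had 37.8 and 18.8 CPM with MG132, against 5.97 and 4.51 CPM with DMSO (2.43 ± 0.41, edgeR adjusted p = 0.00414). These 2 genes were called whichever library was left out.

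Also called with MG132 were Upf1, with 189 and 101 CPM against 45.8 and 37.2 CPM in DMSO embryos (1.80 ± 0.41, edgeR adjusted p = 0.0184), and Smg6 (1.83 ± 0.42, edgeR adjusted p = 0.0182), both higher. Lower were 4 hosts, Gas5 (12.6 and 23.6 CPM against 58.5 and 63.6 CPM, -1.76 ± 0.42), Snhg5 (-3.06 ± 0.71), Snhg8 (-2.85 ± 0.60) and Zfas1 (0.661 and 1.35 CPM against 9.68 and 10.9 CPM, -3.34 ± 0.62), with edgeR adjusted p of 0.0222, 0.0190, 0.0120 and 0.00654. Srsf7 (-1.19 ± 0.30, edgeR adjusted p = 0.0292) and Tra2a (-3.04 ± 0.68, edgeR adjusted p = 0.0156) were lower too. All of these missed the threshold without some library, and fewer of all genes were called in each of those fits too. With the replicate block Upf3b was called as well (1.23, edgeR adjusted p = 0.0458). The 7 measured 2-cell markers summed to 43.7 and 60 CPM with MG132, against 850 and 1086 CPM with DMSO, and their part in these values was not tested.

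Cycloheximide was set directly against MG132 at 2 cells, and 8 of the 36 genes differed, 4 higher and 4 lower with cycloheximide, where 9.50% of all genes were called, 4.09% higher and 5.41% lower. Upf1 was 2.69 ± 0.43 higher with cycloheximide (881 and 969 CPM against 189 and 101 CPM, edgeR adjusted p = 0.00487), and Srsf7 was lower (12.4 and 11.5 CPM against 40.4 and 49.1 CPM, -1.88 ± 0.31, edgeR adjusted p = 0.00565). Both held whichever library was left out. The other 6 were Snhg8 (2.38 ± 0.59), Srsf4 (2.02 ± 0.38) and Clk3 (1.39 ± 0.39), higher, and Srsf1 (-1.66 ± 0.46), Srsf2 (-2.03 ± 0.44) and Srsf3 (-1.38 ± 0.31), lower, and each missed the threshold without at least 1 library. In each fit with 1 library left out fewer of all genes were called too. The change of Srsf1 was -2.52 without cycloheximide replicate 1. In a fit of these 2 groups alone none was called, among the 36 or among all genes. With the replicate block 11 were called, the 8 and also Gas5 (-1.36, edgeR adjusted p = 0.0220), Smg6 (1.45, edgeR adjusted p = 0.0178) and Srsf11 (1.2, edgeR adjusted p = 0.0395). Clk1 did not pass this test, and without the block neither did a host other than Snhg8.

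Aphidicolin at 2 cells called 1 of the 36 genes, lower, where 0.201% of all genes, 45 of 22391, were called, 0.00893% higher and 0.192% lower. Srsf7 had 24.5 and 32.3 CPM with aphidicolin, against 114 and 88 CPM with DMSO (-1.86 ± 0.31, edgeR adjusted p = 0.0390). The adjusted p was 0.384 without aphidicolin replicate 1, 0.0540 without aphidicolin replicate 2 and 0.175 without DMSO replicate 1. With the replicate block 117 of all genes were called. In 9 of the 10 hosts both aphidicolin libraries lay below both DMSO libraries, as did 20.1% of all genes tested, with a median change of -1.32 against -0.01 for all genes, but no host passed the test. At an unadjusted p under 0.05, 1 of the 36 was higher and 4 lower. The 7 measured 2-cell markers summed to 84.8 and 185 CPM with aphidicolin, against 850 and 1086 CPM with DMSO. The 9 oocyte markers summed to 5631 and 4467 CPM, against 3807 and 4232 CPM. The part of these markers in the values was not tested.

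Untreated 2-cell embryos of 12-month females were set against DMSO embryos of 6 to 8-week females, in which age and vehicle cannot be told apart. Again Srsf7 was the gene called, with 29.2 and 27.3 CPM in 12-month embryos, against 114 and 88 CPM in DMSO embryos (-1.84 ± 0.31, edgeR adjusted p = 0.0148), where 1.21% of all genes were called, 0.469% higher and 0.746% lower. The adjusted p was 0.149 without 12-month replicate 1, 0.129 without 12-month replicate 2 and 0.0678 without DMSO replicate 1. All 4 comparisons with DMSO at 2 cells share the 2 DMSO libraries, in which Srsf7 was higher than in any other 2-cell library. With the replicate block 438 of all genes were called, against 272 without. The 7 measured 2-cell markers summed to 605 and 577 CPM in 12-month embryos, against 850 and 1086 CPM in DMSO embryos. The 9 oocyte markers summed to 7524 and 7525 CPM, against 3807 and 4232 CPM. Their part in this result was not tested.

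At 4 cells the pattern of the hosts was another. With cycloheximide 11 of the 36 genes were called, 5 higher and 6 lower, where 19.0% of 22520 genes were called, 8.77% higher and 10.3% lower; their median change was 0.11 and that of all genes 0.44. Of the 10 hosts 3 were higher and 2 lower. Snhg5 had 259 and 316 CPM with cycloheximide, against 78.5 and 58.1 CPM with DMSO (2.14 ± 0.34, edgeR adjusted p = 0.00362), and Snhg6 had 19.6 and 16.7 CPM, against 95.8 and 76.5 CPM (-2.18 ± 0.40, edgeR adjusted p = 0.00668). Snhg5 and Snhg6 did not overlap between the groups and moved in opposite directions.

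Snhg3, the host of Snora73a and Snora73b, had 3.69 and 6.34 CPM in cycloheximide 4-cell embryos, against 159 and 98.4 CPM in DMSO embryos (-4.62 ± 0.39, edgeR adjusted p = 0.000371). It shares 705 exonic bases with Gm17300 on the opposite strand, which had 3.92 and 7.66 CPM with cycloheximide and 173 and 108 CPM with DMSO, and exonic bases on its own strand with Rcc1, a regulator of Ran, which had 2.89 and 6.01 CPM with cycloheximide and 55.9 and 43.0 CPM with DMSO. These 3 genes fell together, and reads of Snhg3 and Gm17300 cannot be told apart without strand.

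Snhg12 had 58.8 and 58.6 CPM with cycloheximide, against 25 and 19.8 CPM with DMSO (1.45 ± 0.43, edgeR adjusted p = 0.0460), and Zfas1 had 169 and 144 CPM, against 70.4 and 57.9 CPM (1.35 ± 0.33, edgeR adjusted p = 0.0226). Both were higher here and lower at 2 cells. Gas5, at 642 and 623 CPM with cycloheximide and 1151 and 980 CPM with DMSO, did not pass (-0.69 ± 0.32, edgeR adjusted p = 0.154), and neither did Snhg1 (0.36 ± 0.24), Snhg8 (0.08 ± 0.38), Snhg17 (1.02 ± 0.34) or Epb41l4aos (-1.27 ± 0.66).

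Of the NMD factors Smg8 was called, at 3.05 and 5.54 CPM with cycloheximide, against 20.6 and 27.0 CPM with DMSO (-2.41 ± 0.72, edgeR adjusted p = 0.0479). Upf1 had 9.16 and 11.4 CPM with cycloheximide, against 12.4 and 15.7 CPM with DMSO (-0.40 ± 0.41, edgeR adjusted p = 0.517). Among SR genes Srsf1 had 65.4 and 60.4 CPM with cycloheximide, against 169 and 158 CPM with DMSO (-1.32 ± 0.23, edgeR adjusted p = 0.00477), and Srsf6 20.7 and 38.2 CPM, against 107 and 97.3 CPM (-1.73 ± 0.34, edgeR adjusted p = 0.00886). Srsf3 (-0.91 ± 0.22) was lower and Srsf10 (1.09 ± 0.28) higher, with edgeR adjusted p of 0.0200 and 0.0276.

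Clk4 was higher at 4 cells, with 77.6 and 90.1 CPM with cycloheximide, against 24.4 and 21.8 CPM with DMSO (1.92 ± 0.34, edgeR adjusted p = 0.00608). Snhg3, Snhg5, Snhg6, Srsf1, Srsf6 and Clk4 were called whichever library was left out. Of the others Snhg12 (adjusted p 0.11 to 0.221) and Smg8 (0.0619 to 0.183) were lost without each of the 4 libraries. Zfas1 (0.0777 to 0.144) and Srsf3 (0.0611 to 0.139) were lost without cycloheximide replicate 1 or either DMSO library, and Srsf10 (0.0886 to 0.175) without cycloheximide replicate 2 or either DMSO library. With 1 library left out, fewer of all genes were called each time too.

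Markers moved at 4 cells too. Those of 4-cell embryos and stem cells, 9 genes, summed to 1093 and 1198 CPM with cycloheximide, against 5061 and 5640 CPM with DMSO. Nearly all of this sum was Dppa5a, with a mean of 1059 CPM with cycloheximide against 5203 CPM with DMSO. Mean CPM was also lower for Nanog (1.28 against 8.50), Klf2 (6.45 against 37.25) and Klf4 (22.35 against 53.2). So was that of Tdgf1 (0.432 against 11.9) and, slightly, Pou5f1 (0.885 against 1.10). Zfp42 had 40.6 CPM against 24.9 CPM, Sox2 3.72 CPM against 0.142 CPM and Esrrb 10.6 CPM in both. The 7 measured 2-cell markers summed to 214 and 424 CPM, against 115 and 43.6 CPM, and among them Zfp352 had a mean of 162 CPM against 12.7 CPM and Usp17lb 9.21 CPM against 26.8 CPM. The 9 cumulus and granulosa cell markers summed to 9.14 and 10.03 CPM with cycloheximide, against 398 and 357 CPM with DMSO. Gja1, a gap junction gene, made up nearly all of the DMSO sum, with a mean of 1.48 CPM with cycloheximide against 372.5 CPM with DMSO. Kitl had 4.83 CPM against 4.97 CPM, the other 7 were at or below 1.17 CPM in both groups, and 3 and 2 of the 9 were at 0 with cycloheximide, against 5 and 7 with DMSO. The part of these markers in the results was not tested. Of the other lists, 11 of 20 other hosts were lower with cycloheximide and 2 higher, among them Dancr (-4.33 ± 0.41), Hspa8 (-3.77 ± 0.34) and Rack1 (-3.72 ± 0.31). Of 39 tested other splicing factors 14 were lower and none higher, and of 15 tested NMD and exon junction factors 6 were lower and 2, Pnrc2 and Dcp2, higher. Of 9 known NMD targets 4 were higher and none lower: Atf3, Ddit3 (3.46 ± 0.27), Cdkn1a (2.62 ± 0.53) and Gadd45a (2.01 ± 0.43).

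MG132 at 4 cells called 7 of the 36 genes, 4 higher and 3 lower, where 7.38% of all genes were called, 3.06% higher and 4.33% lower. Tra2b, whose poison exon is printed above, had 988 and 1042 CPM with MG132, against 356 and 264 CPM with DMSO (1.59 ± 0.29, edgeR adjusted p = 0.0172), and Tra2a 358 and 305 CPM, against 146 and 66.3 CPM (1.51 ± 0.34, edgeR adjusted p = 0.0323). Srsf1, at 434 and 334 CPM against 169 and 158 CPM (1.09 ± 0.22), and Srsf10 (1.18 ± 0.28) were higher, with edgeR adjusted p of 0.0234 and 0.0391. Snhg17 had 6.03 and 6.50 CPM with MG132, against 18.9 and 28.2 CPM with DMSO (-2.05 ± 0.35, edgeR adjusted p = 0.0134); Snhg6 (-1.84 ± 0.40) and Srsf3 (-0.90 ± 0.22) were lower too, with edgeR adjusted p of 0.0277 and 0.0385. Every 1 of the 7 missed the threshold without some library, and fewer of all genes were called in each of those fits too.

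Set directly against MG132 at 4 cells, cycloheximide gave 9 differences among the 36 genes, 5 higher and 4 lower, where 10.1% of all genes were called, 4.51% higher and 5.58% lower. Srsf1 was lower with cycloheximide, at 65.4 and 60.4 CPM against 434 and 334 CPM with MG132 (-2.41 ± 0.23, edgeR adjusted p = 0.00193), as were Srsf6 (-2.06 ± 0.34) and Snhg3 (-3.71 ± 0.37). Snhg17, at 45.5 and 46.6 CPM against 6.03 and 6.50 CPM (3.07 ± 0.37, edgeR adjusted p = 0.00294), and Snhg5 (1.87 ± 0.34) were higher. These 5 held whichever library was left out. Snhg12 (1.69), Upf3b (1.72), Clk4 (1.44) and Tra2a (-1.36) did not, and fewer of all genes were called in each fit with 1 library left out.

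Aphidicolin at 4 cells called 0 of the 36 genes and 0 of all 22520, 0%, with edgeR's quasi-likelihood test. At an unadjusted p under 0.05 none of the 36 was higher and 7 were lower, and DESeq2 called 2, both lower. The median change of the hosts was -0.62, against 0.05 for all genes, and no host passed the test. Gas5 had 1006 and 564 CPM with aphidicolin, against 1151 and 980 CPM with DMSO, and its libraries overlapped.

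In stem cells the changes with cycloheximide lay between -0.71 and 0.80. Cycloheximide called 10 of the 36 genes, 4 higher and 6 lower, where 27.0% of 18696 genes were called, 13.6% higher and 13.4% lower. All SR genes had a change below 0, from -0.52 to -0.08, and 4 were called: Srsf1 (-0.52 ± 0.16), Srsf4 (-0.49 ± 0.11), Srsf6 (-0.48 ± 0.11) and Srsf2 (-0.45 ± 0.13). Clk1 had 37.5 and 38.3 CPM with cycloheximide, against 20.8 and 23.0 CPM with DMSO (0.72 ± 0.10, edgeR adjusted p = 0.00268). Clk3 (49.7 and 46.6 CPM against 27.7 and 26.8 CPM) and Clk4 (20.5 and 21.6 CPM against 11.3 and 13.1 CPM) were higher by 0.74 and 0.71, with edgeR adjusted p of 0.00350 and 0.00478. Edc3, on the opposite strand of Clk3, had 42.5 and 40.4 CPM with cycloheximide and 41.3 and 40.1 CPM with DMSO.

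Of the hosts in stem cells Epb41l4aos was higher with cycloheximide, at 16.2 and 14.8 CPM, against 8.56 and 8.27 CPM with DMSO (0.80 ± 0.19, edgeR adjusted p = 0.0179). Gas5 had 70.4 and 69.1 CPM with cycloheximide, against 55.8 and 52.1 CPM with DMSO, without overlap, and did not pass (0.29 ± 0.10, edgeR adjusted p = 0.0720). Smg8 (20.3 and 20.9 CPM against 30.8 and 33.0 CPM, -0.71 ± 0.10) and Upf1 (104 and 104 CPM against 133 and 131 CPM, -0.42 ± 0.12) were lower, with edgeR adjusted p of 0.00270 and 0.0377. None of the 10 held in every fit with 1 library left out, and fewer of all genes were called in each of those fits too. In a fit of these 2 groups alone 28 were called. More of all genes were called there too, with their count given below among the processing alternatives. The 7 feeder fibroblast markers summed to 330 and 325 CPM with cycloheximide, against 601 and 729 CPM with DMSO, and their part in the results was not tested.

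MG132 in stem cells called 0 of the 36 genes with edgeR's quasi-likelihood test, where 3.24% of all genes were called, 1.90% higher and 1.34% lower. Without adjustment, at a p under 0.05, 6 were higher and 3 lower, and DESeq2 called 4. MG132 replicate 2 stood apart from replicate 1 for several hosts: Zfas1 had 26.4 and 11.5 CPM with MG132, against 23.4 and 22.6 CPM with DMSO. Without MG132 replicate 1 the count was 26, where 46.5% of all genes were called, and without MG132 replicate 2 it was 13, where 24.9% were. Cycloheximide against MG132 gave 6 genes, where 17.5% of all genes were called, 8.78% higher and 8.70% lower: Epb41l4aos (0.93), Tia1 (0.77), Clk3 (0.41) and Clk4 (0.41) were higher with cycloheximide, and Smg8 (-0.78) and Srsf4 (-0.39) lower. It gave 0 without either cycloheximide library, where 0% of all genes were called, 27 without MG132 replicate 1, where 53.0% were, and 24 without MG132 replicate 2, where 37.5% were.

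**Figure D4:**
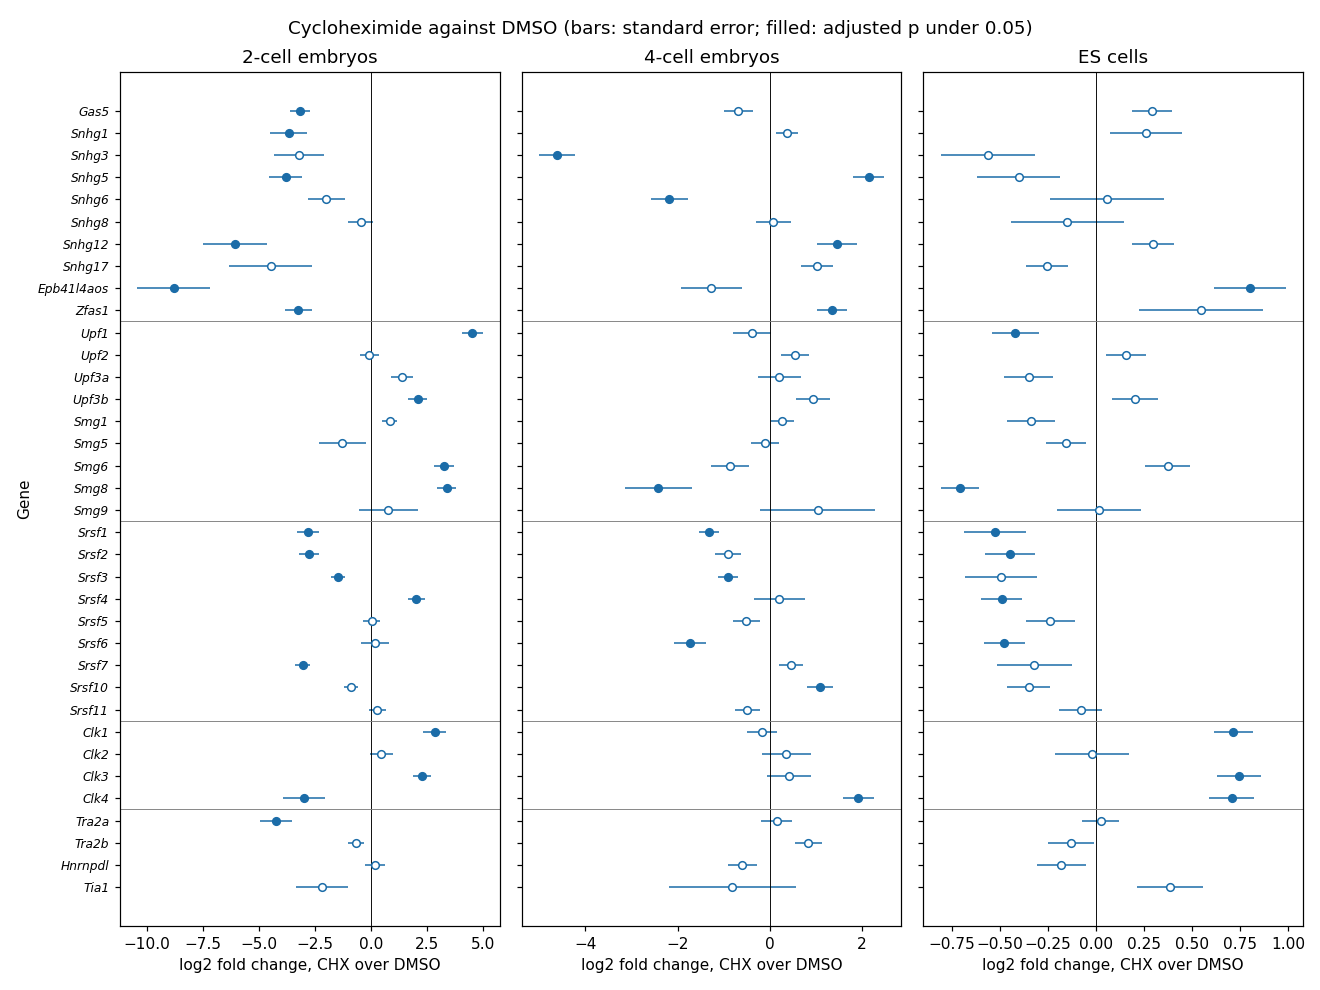
Log2 fold change of cycloheximide over DMSO for each of the 36 genes at 2 cells, at 4 cells and in stem cells, with standard errors as bars and filled points for an adjusted p under 0.05. The horizontal scales of the 3 panels differ: changes run from -8.82 to 4.49 at 2 cells and from -0.71 to 0.80 in stem cells.

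Whether the cycloheximide change differed between systems was tested as a difference of changes in 1 fit of 18 libraries. The change at 2 cells differed from that in stem cells for 19 of the 36 genes, 5 higher and 14 lower, where 13.1% of 27677 genes differed, 4.36% higher and 8.70% lower. The median difference was -0.79 for the 36 genes and -0.66 for all genes. Among the hosts 8 of 10 were more negative at 2 cells, with differences of -3.72 ± 0.41 for Gas5 (edgeR adjusted p = 7.32e-05), -4.04 ± 0.55 for Zfas1 (edgeR adjusted p = 0.000329) and -4.20 ± 0.75 for Snhg1 (edgeR adjusted p = 0.00212). Upf1 was more positive by 4.66 ± 0.40 (edgeR adjusted p = 1.29e-05). Of the 19, 15 held whichever library was left out; Snhg17 (adjusted p up to 0.198), Srsf3 (up to 0.109), Clk1 (up to 0.0599) and Clk4 (up to 0.0694) did not. The library kit differs between embryos and stem cells and cannot be told apart from the system.

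The change at 4 cells differed from that at 2 cells for 20 of the 36 genes, 14 higher and 6 lower, where 30.7% of all genes differed, 21.9% higher and 8.85% lower. The median difference was 0.67 for the 36 genes and 1.26 for all genes, so positive differences near 1.26 lie near that of the whole library. Both used the same kit. Among the hosts 7 of 10 were more positive at 4 cells: Zfas1 differed by 4.72 ± 0.56 (edgeR adjusted p = 4.62e-05), Snhg5 by 6.06 ± 0.84 (edgeR adjusted p = 0.000155) and Gas5 by 2.61 ± 0.41 (edgeR adjusted p = 0.000366). Upf1 (-4.78 ± 0.40), Smg6 (-4.00 ± 0.55) and Smg8 (-5.66 ± 0.85) were more negative at 4 cells. Of the 20, 17 held whichever library was left out; Srsf1 (adjusted p up to 0.0754) and Clk3 (up to 0.109) were lost without several libraries and Srsf4 (0.0569) without 4-cell cycloheximide replicate 1. Between 4 cells and stem cells 3 of the 36 genes differed, where 11.7% of all genes did, 6.63% higher and 5.05% lower: Snhg3 (-4.20 ± 0.55), Epb41l4aos (-2.20 ± 0.64) and Srsf10 (1.30 ± 0.39). Here the median difference was -0.06 for the 36 genes and 0.33 for all genes. Epb41l4aos was lost without each library (adjusted p up to 0.171), and Srsf10 without each but 4-cell cycloheximide replicate 1 (up to 0.178).

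The levels without drug were compared along development, from MII oocytes of 8-week females through DMSO 2-cell to DMSO 4-cell embryos; vehicle and stage cannot be told apart at the first step. From oocyte to 2 cells 16 of the 36 genes were called, 6 higher and 10 lower, where 20.2% of 22954 genes were called, 10.1% in each direction. Of the hosts 5 were higher and none lower at 2 cells, and of the NMD factors 5 were lower and none higher. Zfas1 had 9.68 and 10.9 CPM in DMSO 2-cell embryos, against 0.841 and 0.560 CPM in oocytes (3.82 ± 0.43, edgeR adjusted p = 0.000295), and Snhg5 41.1 and 26.8 CPM, against 1.47 and 4.65 CPM (3.42 ± 0.61, edgeR adjusted p = 0.00401). Upf1 had 45.8 and 37.2 CPM at 2 cells, against 740 and 406 CPM in oocytes (-3.82 ± 0.39, edgeR adjusted p = 0.000205).

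Clk1 had the largest change of the 36 genes between oocyte and 2 cells, with 30.4 and 19.1 CPM in DMSO 2-cell embryos, against 1371 and 1942 CPM in MII oocytes (-6.11 ± 0.37, edgeR adjusted p = 3.34e-05). Smg8 (-3.83 ± 0.35), Upf3b (-2.97 ± 0.26), Clk2 (-1.72 ± 0.33), Smg6 (-1.60 ± 0.46), Upf2 (-1.56 ± 0.38), Hnrnpdl (-1.23 ± 0.28), Srsf7 (-1.02 ± 0.26) and Srsf3 (-0.98 ± 0.29) were lower at 2 cells as well. Snhg12 (4.74 ± 1.25, from 4 counts in 1 oocyte library and 0 in the other), Snhg3 (2.10 ± 0.40), Snhg1 (1.94 ± 0.51) and Srsf2 (1.42 ± 0.43) were higher. Snhg3, Snhg5, Zfas1, Upf1, Upf3b, Smg8 and Clk1 were called whichever library was left out. In each fit with 1 library left out, fewer of all genes were called too.

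From 2 to 4 cells 29 of the 36 genes were called, 26 higher and 3 lower, where 49.0% of all genes were called, 19.6% higher and 29.4% lower. Their median change was 2.17, against -0.57 for all genes. Gas5 had 1151 and 980 CPM at 4 cells, against 58.5 and 63.6 CPM at 2 cells (4.20 ± 0.26, edgeR adjusted p = 2.36e-06), and Snhg3 had 159 and 98.4 CPM, against 1.92 and 1.92 CPM (6.13 ± 0.41, edgeR adjusted p = 3.02e-06). Of the SR genes 7 of 9 were higher, among them Srsf6, at 107 and 97.3 CPM against 9.65 and 2.42 CPM (4.15 ± 0.60, edgeR adjusted p = 0.000283), and Srsf7, at 774 and 594 CPM against 114 and 88 CPM (2.83 ± 0.27, edgeR adjusted p = 2.05e-05).

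The 3 genes lower at 4 cells were Upf1, at 12.4 and 15.7 CPM against 45.8 and 37.2 CPM (-1.49 ± 0.36, edgeR adjusted p = 0.00659), Clk2, at 5.20 and 5.31 CPM against 15.7 and 17.1 CPM (-1.57 ± 0.34, edgeR adjusted p = 0.00323), and Srsf4 (-1.20 ± 0.43, edgeR adjusted p = 0.0383). Upf1 was thus lower at each step, while 6 other NMD factors, Upf2, Upf3a, Upf3b, Smg5, Smg6 and Smg8, were higher at 4 cells than at 2. Not called were Snhg5, Snhg8, Smg1, Smg9, Srsf10, Clk3 and Tia1. Of the 29, 21 held whichever library was left out, and 23 to 25 were called each time. The 8 others, with their highest adjusted p, were Snhg12 (0.131), Snhg17 (0.0730), Upf2 (0.124), Upf3a (0.110), Srsf4 (0.133), Srsf5 (0.0551), Clk4 (0.199) and Hnrnpdl (0.0924).

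**Figure D5:**
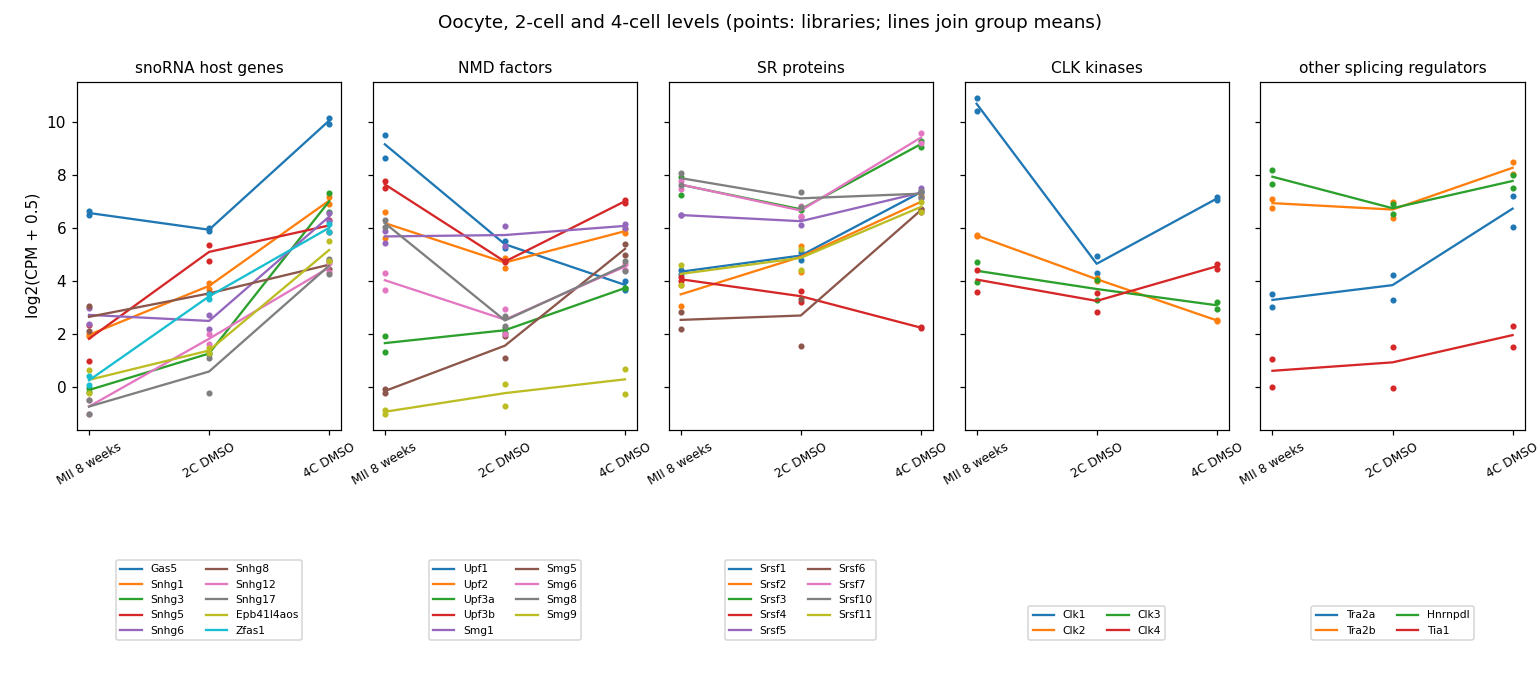
Levels as log2(CPM + 0.5) in MII oocytes of 8-week females, DMSO 2-cell and DMSO 4-cell embryos, by role; points are libraries and lines join group means. Upf1 and Clk1 start high in oocytes, and the host genes end highest at 4 cells.

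Maternal age was tested in MII oocytes. In oocytes of 12-month against 8-week females, 0 of 32 tested genes were called with edgeR's quasi-likelihood test, where 0.802% of 15083 genes were called, 0.272% higher and 0.530% lower; Snhg3, Snhg12, Snhg17 and Smg9 had too few counts to be tested. At an unadjusted p under 0.05, 0 were higher and 1 lower, and DESeq2 called 0. Upf1 had 552 and 578 CPM in 12-month oocytes, against 740 and 406 CPM in 8-week oocytes, and Clk1 1524 and 1513 CPM, against 1371 and 1942 CPM. The younger libraries enclose the older ones for both genes.

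Growing oocytes tested the H3.3K4M transgene, whose own expression was not analysed here. Of 33 tested genes 7 were called, 6 higher and 1 lower, where 22.4% of 15386 genes were called, 8.64% higher and 13.7% lower; Snhg3, Snhg8 and Snhg12 had too few counts, and no host was called. Smg5, an adaptor of phosphorylated Upf1, had 3.36 and 3.67 CPM in H3.3K4M oocytes, against 1.75 and 1.30 CPM in H3.3WT oocytes (1.18 ± 0.31, edgeR adjusted p = 0.0162). Upf3b had 45.7 and 37.8 CPM in H3.3K4M oocytes, against 28.4 and 23.5 CPM in H3.3WT oocytes (0.67 ± 0.19, edgeR adjusted p = 0.0253). Upf2 was the gene that was lower, with 7.73 and 7.59 CPM, against 13.2 and 11.1 CPM (-0.69 ± 0.22, edgeR adjusted p = 0.0378).

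Srsf4 (0.80 ± 0.24), Clk4 (0.63 ± 0.21), Clk3 (0.60 ± 0.18) and Srsf7 (0.48 ± 0.16) were higher in H3.3K4M oocytes, with edgeR adjusted p of 0.0333, 0.0485, 0.0324 and 0.0488. Gm12992 on the opposite strand of Srsf4 had 18.2 and 19.4 CPM in H3.3K4M oocytes and 12.8 and 12.3 CPM in H3.3WT oocytes. Edc3 on the opposite strand of Clk3 had 14.2 and 15.1 CPM in H3.3K4M oocytes and 12.1 and 10.7 CPM in H3.3WT oocytes. None of the 7 held whichever library was left out. The share of all genes called was lower without H3.3K4M replicate 1 or either H3.3WT library, and higher without H3.3K4M replicate 2. The 7 measured 2-cell markers summed to 55.9 and 71.9 CPM in H3.3K4M oocytes, against 236 and 185 CPM in H3.3WT oocytes, mostly from Tcstv3 (mean of 62.8 CPM against 194.7 CPM), and their part in these results was not tested.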

How the data were processed

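Gene counts were deposited by the authors as 1 table of raw counts per library, 32 libraries in 16 groups of 2, each with 55335 genes and 1153 repeat subfamilies. Per the submitters' processing notes cutadapt 1.16 and STAR were used with mm10; no counter, annotation or use of strand is named in the sources used here. Per the labels' protocols oocytes and embryos were prepared with Smart-Seq2 and stem cells with a TruSeq poly(A) kit. Of the gene identifiers 55154 matched GENCODE M21 without their version. Library totals ran from 14313718 to 34713159 counts, and low counts are given with 95% intervals.

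The members, lists and tests were chosen with earlier results of these data known. Within each of 7 fits, genes passed edgeR's filterByExpr (minimum count 10, minimum total 15), libraries were scaled by TMM over genes and repeats, and 16 comparisons and 3 differences were tested with the quasi-likelihood F-test (edgeR 4.0.16, limma 3.58.1, R 4.3.3), with Benjamini-Hochberg adjustment over all genes tested and a threshold of 0.05. DESeq2 1.42.0 was an alternative, and tables were joined in Python 3.11.15. The pipeline was tested on simulated data. The printed levels use 1 scaling of all 32 libraries and fold changes that of their own fit. Alternatives were DESeq2's size factors, no filter, library sizes from genes only, only the groups compared, 1 scaling over all libraries, a replicate block and leaving out each library.

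All 37 genes are named by role. Levels in every library are given for called genes, largest change first, and for a set of index genes; of the other lists up to 3 called genes per direction are named, and counts of 5 or fewer in full; 1 result of those lists is not reported here. Same-numbered 2-cell drug and vehicle libraries deviated together (r of 0.218 to 0.484 over 6 pairs of groups). This pairing comes from the data, not from the labels, and did not extend to the 12-month embryos (r of -0.0607 to 0.0868). The RefSeq promoter table gave a start window for 8 of the 10 hosts.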

Additional observations from a re-analysis of the deposited data

Results flagged for a closer look

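The change with cycloheximide differed between systems for the genes below, because the test of the difference itself passed an adjusted p of 0.05 (edgeR quasi-likelihood test with Benjamini-Hochberg adjustment). Values are differences of log2 changes. Their median over all genes was -0.66 between 2-cell embryos and stem cells and 0.33 between 4-cell embryos and stem cells. It was 1.26 between 4-cell and 2-cell embryos, and the values below are not corrected for it. Those of genes with few or no counts in a group, Epb41l4aos and Snhg12 at 2 cells above all, depend on the prior count and are no bound.

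Between 2-cell embryos and stem cells, the hosts differed by -3.72 (Gas5), -4.20 (Snhg1), -2.90 (Snhg3), -3.66 (Snhg5), -6.64 (Snhg12), -4.48 (Snhg17), -9.99 (Epb41l4aos) and -4.04 (Zfas1). The decay factors differed by 4.66 (Upf1), 2.62 (Smg6) and 3.81 (Smg8). The SR genes differed by -2.55 (Srsf1), -2.57 (Srsf2), -1.24 (Srsf3), 2.25 (Srsf4) and -2.99 (Srsf7), the kinases by 1.85 (Clk1) and -3.95 (Clk4), and Tra2a by -4.52. Between 4-cell embryos and stem cells, Snhg3 differed by -4.20, Epb41l4aos by -2.20 and Srsf10 by 1.30.

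Between 4-cell and 2-cell embryos, the hosts differed by 2.61 (Gas5), 4.16 (Snhg1), 6.06 (Snhg5), 7.66 (Snhg12), 5.62 (Snhg17), 7.79 (Epb41l4aos) and 4.72 (Zfas1). The decay factors differed by -4.78 (Upf1), -4.00 (Smg6) and -5.66 (Smg8). The SR genes differed by 1.62 (Srsf1), 1.97 (Srsf2), -1.71 (Srsf4), 3.63 (Srsf7) and 2.08 (Srsf10), the kinases by -2.87 (Clk1), -1.73 (Clk3) and 5.02 (Clk4), and the TRA2 genes by 4.51 (Tra2a) and 1.62 (Tra2b). Without 2-cell cycloheximide replicate 2 the difference of Clk4 was 8.21 here and -7.12 against stem cells, and without replicate 1 that of Srsf1 was 2.49 here.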

How the results depend on the processing

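No called gene changed direction under the alternatives run. In a fit of only the groups compared, 28 of the 36 genes were called for cycloheximide in stem cells, 1 for cycloheximide against MG132 there, 10 for DMSO 2-cell embryos against 8-week MII oocytes, and 0 for 2-cell aphidicolin, 12-month embryos and cycloheximide against MG132. For MG132 in stem cells the count was 4 with no filter, 1 with library sizes from genes only, 3 with 1 scaling of all libraries and 4 with DESeq2. DESeq2 gave 16 for 2-cell MG132, 2 for aphidicolin at 2 and at 4 cells, 2 for H3.3K4M and 6 for the 4-cell against stem cell difference. No filter gave 3 for 2-cell aphidicolin and 1 for that difference. The causes were not tested.

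Leaving out 1 library gave, among stem cells, 1 to 3 genes for cycloheximide, 0 to 26 for MG132 and 0 to 27 for cycloheximide against MG132. At 2 cells it gave 18 to 20 for cycloheximide, 2 to 7 for MG132, 0 to 1 for aphidicolin and for 12-month embryos, and 2 to 8 for cycloheximide against MG132. At 4 cells it gave 6 to 8, 0 to 4 and 0 to 0 for cycloheximide, MG132 and aphidicolin, and 5 to 8 for cycloheximide against MG132. It gave 1 to 7 for H3.3K4M, 0 for MII age, 10 to 12 and 23 to 25 for the 2 developmental steps, and 15 to 20, 1 to 2 and 17 to 22 for the 3 differences.

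With the replicate block, the pairing by number, counts were 7, 0 and 3 in stem cells, 21, 11, 1, 11 and 1 at 2 cells (cycloheximide, MG132, aphidicolin, cycloheximide against MG132, 12-month), 11, 8, 0 and 9 at 4 cells, 0 for MII age, 1 for H3.3K4M, 15 and 28 for the steps and 18, 2 and 20 for the differences. A crossed pairing, added after seeing the data, gave 13 for H3.3K4M and 0 for MII age.

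Counts over all genes moved by over 1.5 times too. With only the groups compared, 10640 were called for stem cell cycloheximide (5042 otherwise), 15 for MG132 (606), 1063 for cycloheximide against MG132 (3267), 3359 for 2-cell cycloheximide (5367), 7167 at 4 cells (4290), 116 for 12-month 2-cell embryos (272), and 0 for 2-cell aphidicolin (45) and cycloheximide against MG132 (2128). DESeq2 gave 3561 for 2-cell MG132 (2188), 3558 for cycloheximide against MG132 (2128), 521 for aphidicolin (45), 1047 for 12-month embryos (272), 6584 for 4-cell cycloheximide (4290), 3843 for MG132 (1663), 4283 for cycloheximide against MG132 (2273), 224 for aphidicolin (0), 1017 for MII age (121) and 4936 for the 4-cell against stem cell difference (3233). With no filter counts were 1336 for stem cell MG132, 615 for 2-cell aphidicolin, 962 for 12-month embryos, 788 for MII age and, at 4 cells, 3463 for MG132, 347 for aphidicolin and 3932 for cycloheximide against MG132. The replicate block gave 203 for stem cell MG132, 117 for 2-cell aphidicolin, 438 for 12-month embryos and 188 for MII age, and the crossed pairing 5727 for H3.3K4M (3444).

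Another scaling moved the median of all genes by up to 0.278, with library sizes from genes only, for 2-cell embryos against MII oocytes. At 2 cells Snhg12 and Snhg17 rest on 2 counts with cycloheximide and Epb41l4aos on 0, which limits the precision of their changes. With 2 libraries per group, a call can rest on 1 library, as the ranges above show. Fewer of all genes were called too when 1 library was left out of the embryo cycloheximide and MG132 comparisons or the developmental steps.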

Other observations

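Lists of related genes that were not described above moved as follows. From 2 to 4 cells with DMSO, 14 of 20 tested other snoRNA hosts were higher and 1 lower, and 22 of 39 other splicing factors were higher and 4 lower, where 19.6% of all genes were higher and 29.4% lower. Of 16 other NMD and exon junction factors 6 were higher, among them Rbm8a (3.61 ± 0.27) and Eif4a3 (3.36 ± 0.30), both of the exon junction complex, and Gspt1, a termination factor (2.71 ± 0.35). The 3 lower were the decapping genes Dcp2 (-3.68 ± 0.33), Dcp1a (-3.56 ± 0.28) and Pnrc2 (-2.81 ± 0.65).

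In stem cells with cycloheximide the known NMD targets Ddit3 (2.05 ± 0.12) and Atf3 (1.64 ± 0.16) were higher and Cars (-0.38 ± 0.10) lower, of 9 tested, where 13.6% of all genes were higher and 13.4% lower.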
